A study of Mus musculus with 9 samples.

Results

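The aminoacyl-tRNA synthetase genes of mouse jejunal crypts were described in 9 RNA-seq libraries. Members were taken by symbol: a 1-letter amino acid code followed by "ars", with or without a closing 2, together with Eprs, Farsa and Farsb. The rule found 37 genes among the 23951 listed. Of these, 20 symbols have no closing 2 and are called cytosolic here, and 17 end in 2 and are called mitochondrial. All 37 passed the filter on low values in both deposited tables.

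Crypts are the pockets of the intestinal lining that hold stem, progenitor and Paneth cells. They came from control mice, from Smad4f/f;Villin-CreER(T2) mice (Smad4 KO), and from Smad4f/f; Ex3f/+;Villin-CreER(T2) mice (double mutants), with 3 libraries per group, numbered 0 to 2. Villin-CreER(T2) is a tamoxifen-dependent recombinase of the intestinal epithelium, and deletion of exon 3 from a beta-catenin allele yields a stabilised protein that keeps Wnt signalling on. Tamoxifen was injected into mutant mice on 4 successive days, and crypts were taken 1 day after the last dose. Control mice are described as vehicle-treated in the sample labels and as uninjected in the design text. Because only the mutant groups are stated to carry the recombinase and to have received tamoxifen, these factors cannot be told apart from genotype. Nothing in the labels ties each library to its own mouse, so p-values measure the spread between libraries, part of which may be technical. By sex-linked transcripts, 1 control library was female, as were 2 libraries of each mutant group, and the rest were male. Each group thus held both sexes and came from more than 1 mouse.

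Values are FPKM, fragment numbers scaled by transcript length and library size, a per-length scale on which genes can be compared. One deposited table held controls and Smad4 KO, and another held the same controls and the double mutants. Each was normalized separately, and the absolute depth is unknown. Summed FPKM ran from 568081 to 752340 per library in the table of Smad4 KO and from 573491 to 758719 in that of the double mutants. Smad4, the deleted gene, fell from 49.8 to 10.6 FPKM in Smad4 KO crypts (limma adjusted p = 0.00664) and from 52.0 to 10.4 FPKM in double mutants (adjusted p = 0.00176). A gene was called when its adjusted p in limma, computed over all genes tested, was below 0.05. Each log2 fold change is a difference of means of log2(FPKM + 1), where the added 1 shrinks the changes of low genes, and SE is the standard error of that change. In bulk crypts, fewer cells of a type and less RNA per cell cannot be told apart.

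Each synthetase joins an amino acid to its matching tRNA and so sets the accuracy of the genetic code and the supply of charged tRNA to the ribosome. The cytosol and the mitochondrion have largely separate sets, both encoded in the nucleus, and Gars and Kars are known to serve both compartments. Several cytosolic synthetases sit with 3 scaffold proteins in a large multi-synthetase complex. Transcription of many cytosolic synthetase genes is known to be raised by ATF4, the effector of the amino acid shortage response, and synthetases are among the growth genes linked to Myc. The crypt is one of the fastest-dividing tissues of the adult and has a high demand for protein synthesis.

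In control crypts the cytosolic genes were expressed above the mitochondrial ones, with median levels of 40.3 and 13.7 FPKM. Nars, the asparaginyl-tRNA synthetase, had the highest level, at 136, 142 and 132 FPKM in controls 0, 1 and 2. Wars2, the mitochondrial tryptophanyl enzyme, had the lowest, at 4.46, 5.32 and 4.58 FPKM. The highest mean was thus 28.5-fold above the lowest, and the range within a class was much narrower, 8.21-fold for cytosolic and 8.03-fold for mitochondrial genes.

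After Nars came Qars, the glutaminyl enzyme, at 93.7 ± 5.49 FPKM (SD, n = 3 here and below). Kars followed at 76.5 ± 3.4, Rars at 75.3 ± 1.89 and Wars at 71.7 ± 25.5 FPKM. Gars stood at 67.8 ± 8.48, Farsb at 61.1 ± 6.59, Tars at 54.3 ± 5.41 and Vars at 47.8 ± 5.84 FPKM. The lowest cytosolic gene was Cars, the cysteinyl enzyme, at 16.6 ± 5.04 FPKM. Among mitochondrial genes Iars2 led at 38.5 ± 3.52 FPKM, ahead of Rars2 at 28.7 ± 4.21, Tars2 at 27.6 ± 1.19, Fars2 at 26.6 ± 2.96 and Lars2 at 25.3 ± 10.3. Pars2, Nars2, Aars2 and Wars2 were the 4 lowest, with means between 4.79 and 6.08 FPKM. In this order 32 of the 36 neighbouring genes overlapped in their libraries and did not differ beyond their spread. The 4 steps without overlap were Nars to Qars, Qars to Kars, Ears2 to Sars2, and Mars2 to Pars2.

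**Figure D1:**
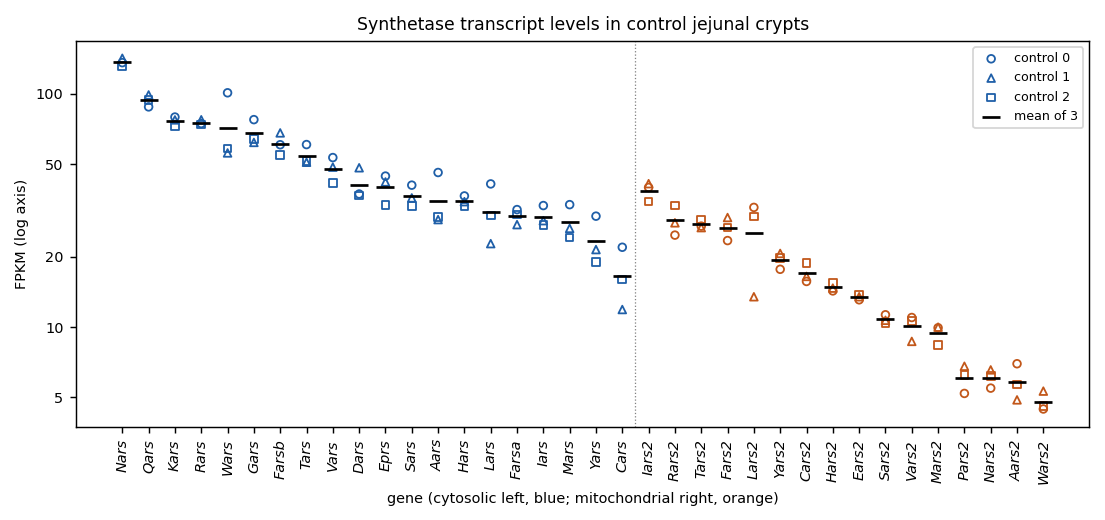
Level of each synthetase in the 3 control libraries (FPKM, log axis; circles, triangles and squares are controls 0, 1 and 2, bars are means; cytosolic genes left, 16 of the 17 mitochondrial genes right). Cytosolic genes run from 137 down to 16.6 FPKM and mitochondrial genes from 38.5 down to 4.79, and the circle of control 0 lies on top for 15 of the 20 cytosolic genes.

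The controls were not alike in their cytosolic synthetases. Control 0 gave the highest value for 15 of the 20 cytosolic genes and for 4 of the 17 mitochondrial ones, while over all genes tested it was highest for 30%. Wars, the tryptophanyl enzyme that interferon is known to induce, stood at 101 FPKM in control 0 against 55.8 and 58.3 in controls 1 and 2. Aars, the alanyl enzyme, was at 46.0 FPKM in control 0 and at 28.9 and 29.6 in the others. Control 0 was also the highest library for Yars (29.9, 21.5 and 19.0 FPKM) and for Mars, the methionyl enzyme that also charges the initiator tRNA (33.5, 26.5 and 24.2 FPKM). The 5 cytosolic genes that were not highest in control 0 were Nars, Qars, Rars, Farsb and Dars.

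The 26 genes of an ATF4 amino acid response list summed to 1260 FPKM in control 0 and to 876 and 875 in controls 1 and 2. Sums weigh the highest genes most. Gene by gene, the median difference from the control mean of log2(FPKM + 1) was 0.21, -0.11 and -0.2 in controls 0, 1 and 2. The part of the ATF4 list in the synthetase values was not tested. Relative spread among controls, the SD as a percentage of the mean, was largest for Lars2 (40.7%), Wars (35.5%), Cars (30.3%) and Lars (29.4%). Lars2, the mitochondrial leucyl enzyme, owed this to control 1, at 13.5 FPKM against 32.6 and 29.8. The median spread was 11.5% for cytosolic and 9.57% for mitochondrial genes, and 14.2% over all genes.

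In double mutants 9 of the 37 synthetases rose and none fell. Of all genes tested in that comparison, 9.39% were called higher and 9.09% lower, against 24.3% and 0% of the synthetases. The 9 were Vars, Mars, Farsa and Iars of the cytosolic class and Yars2, Aars2, Vars2, Sars2 and Tars2 of the mitochondrial class. At an unadjusted p below 0.05, 15 members were higher and 0 lower, beside 18.2% and 18.4% of all genes. All 3 mutant libraries lay above all controls for 18 members and below them for 1, and each of these arrangements was seen for 21.3% of all genes.

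The largest cytosolic rise was in Vars, the valyl enzyme, which binds the elongation factor EF-1. Its level was 54.9, 51.4 and 43.4 FPKM in the controls of that table and 87.1, 81.5 and 89.0 FPKM in double mutants 0, 1 and 2. Every mutant library lay well above every control, and the log2 fold change was 0.78 (SE 0.11, adjusted p = 0.0155). Mars stood at 34.6, 28.1 and 25.2 FPKM in controls and at 43.8, 45.4 and 47.5 in double mutants, without overlap and with control 0 closest to the mutants. Its log2 fold change was 0.63 (SE 0.13, adjusted p = 0.0273), and the adjusted p was 0.0542 with the replicate block. Mars was called in 1 of the 6 fits that left out a library.

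Farsa encodes the catalytic alpha subunit of the cytosolic phenylalanyl enzyme, a tetramer of alpha and beta chains. Controls had 32.9, 29.1 and 31.7 FPKM, and double mutants 47.5, 44.7 and 47.2, a clear gap between tight groups. The log2 fold change of Farsa was 0.56 (SE 0.09, adjusted p = 0.0168). The partner subunit Farsb did not pass the test, with a log2 fold change of 0.19 (SE 0.12, adjusted p = 0.3). Its libraries overlapped, the controls having 62.4, 72.0 and 57.2 FPKM and the double mutants 67.7, 79.2 and 71.7. Whether the 2 subunits differ in their change was not tested. Iars, the isoleucyl enzyme, had 34.3, 30.3 and 28.5 FPKM in controls and 38.4, 40.6 and 41.2 in double mutants. Its groups did not overlap but its adjusted p of 0.0499 lay next to the threshold (log2 fold change 0.36, SE 0.10). Iars was called in 2 of 11 other settings of the fit to all libraries and in 1 of the 6 fits that left out a library. Its adjusted p was 0.0616 without the mean-variance trend and 0.0928 with the replicate block.

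Of the mitochondrial genes Yars2, the tyrosyl enzyme, had the largest rise and the smallest p of all synthetases. It stood at 18.2, 21.9 and 20.7 FPKM in controls and at 36.5, 34.8 and 34.8 in double mutants, a 1.74-fold difference in means. The log2 fold change was 0.78 (SE 0.09, adjusted p = 0.0124). Aars2, the alanyl enzyme, moved from 7.19, 5.17 and 5.93 FPKM to 10.2, 10.3 and 10.2. The mutant values were almost the same while the controls spread, and the log2 fold change was 0.67 (SE 0.12, adjusted p = 0.0221). Vars2, the valyl enzyme, had 11.3, 9.20 and 11 FPKM in controls and 16.4, 14.8 and 17.0 in double mutants (log2 fold change 0.57, SE 0.11, adjusted p = 0.0243).

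Sars2, the seryl enzyme, was at 11.7, 11.3 and 10.8 FPKM in controls and at 15.8, 15.5 and 15.6 in double mutants. The step was small but the spread was smaller still (log2 fold change 0.44, SE 0.08, adjusted p = 0.0203). Tars2, the threonyl enzyme, had 28.0, 28.2 and 30.2 FPKM in controls and 39.7, 38.0 and 39.2 in double mutants (log2 fold change 0.42, SE 0.08, adjusted p = 0.0224). For each of the 9 genes the exact two-sided permutation test over libraries gave 0.1, the smallest value that 3 against 3 libraries allow. Vars, Farsa and Yars2 were each called in 4 of the 6 fits that left out a library. Vars2 and Sars2 were each called in 3, Aars2 in 2, and Mars, Tars2 and Iars in 1.

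**Figure D2:**
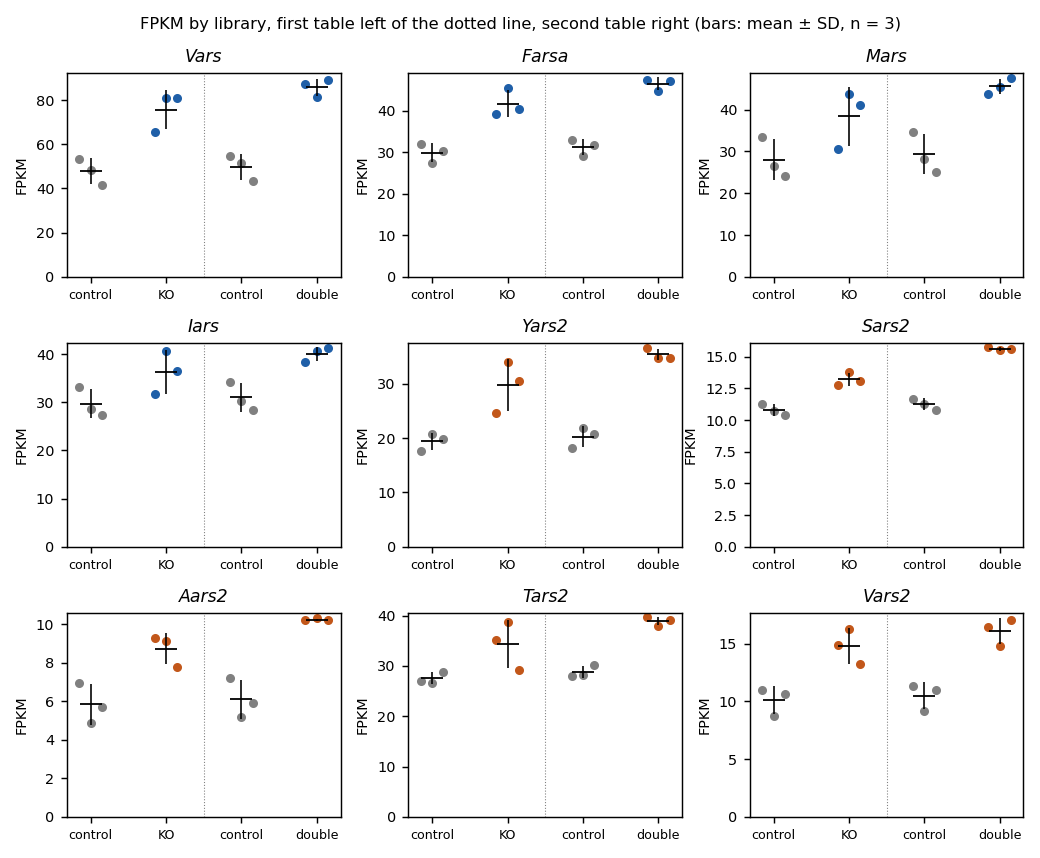
FPKM of the 9 synthetases called higher in double mutants, by library (points; crosses are mean ± SD, n = 3; blue cytosolic, orange mitochondrial, grey controls; left of the dotted line the table with Smad4 KO, right of it the table with double mutants). In every panel the 3 double-mutant points lie above the 3 control points of their table, as for Yars2 at 34.8 to 36.5 against 18.2 to 21.9 FPKM.

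Several other members had positive changes that did not pass the test. Cars had a log2 fold change of 0.62 (SE 0.22, adjusted p = 0.0934), almost that of Mars, but its controls ran from 12.7 to 22.6 FPKM. Hars (0.33, adjusted p = 0.066), Mars2 (0.38, 0.079), Tars (0.29, 0.0813), Gars (0.33, 0.0849) and Aars (0.46, 0.123) also had all mutant libraries above all controls. Wars had a log2 fold change of 0.39 with an SE of 0.24 and an adjusted p of 0.284, and its 107 FPKM in double mutant 0 lay close to the 104 of control 0.

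The lowest cytosolic change was that of Qars, with a log2 fold change of -0.24 (SE 0.11, adjusted p = 0.164). Its controls had 90.7, 105 and 98.3 FPKM and its double mutants 77.3, 91.1 and 79.4, so that double mutant 1 lay within the control range. Fars2, the mitochondrial phenylalanyl enzyme, had the lowest mitochondrial change, -0.27 (SE 0.11, adjusted p = 0.14). At 23.9, 22.7 and 21.8 FPKM its mutant libraries lay below the controls at 24.3, 31.2 and 27.8, the only synthetase with that order.

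Among Smad4 KO libraries no synthetase passed the test in limma. This comparison called few genes of any kind: 0.00844% of all genes tested were higher and 0.0253% lower at the adjusted threshold. At an unadjusted p below 0.05, 7 members were higher and 2 lower, beside 9.76% and 9.34% of all genes. All KO libraries lay above all controls for 9 members and below them for 1, beside 14.2% and 12.2% of all genes. The 9 were Vars, Farsa and Hars of the cytosolic class and Yars2, Vars2, Aars2, Sars2, Tars2 and Mars2 of the mitochondrial class.

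The smallest p among cytosolic genes belonged to Vars, which had 53.3, 48.5 and 41.6 FPKM in the control group, with 65.4, 80.8 and 81.0 for KO 0, 1 and 2. KO 0 was the lowest of the mutant libraries but still above every control (log2 fold change 0.65, SE 0.14, adjusted p = 0.13). Farsa libraries held 31.9, 27.5 and 30.4 FPKM in the control group, with 39.3, 45.4 and 40.3 in the KO group (log2 fold change 0.46, SE 0.11, adjusted p = 0.135). Qars was measured at 87.9, 98.9 and 94.3 FPKM in the control group, with 78.4, 79.4 and 72.1 for KO 0, 1 and 2. It was the only synthetase with every KO library below every control (log2 fold change -0.29, SE 0.10, adjusted p = 0.222).

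Among mitochondrial genes, Yars2 had control values of 17.7, 20.7 and 19.8 FPKM, with KO values of 24.6, 34.0 and 30.5, again with KO 0 nearest to the controls (log2 fold change 0.58, SE 0.14, adjusted p = 0.148). Vars2 had means of 10.1 ± 1.23 FPKM in controls and 14.8 ± 1.54 in KO (log2 fold change 0.51, SE 0.13, adjusted p = 0.156). Aars2 had means of 5.84 ± 1.06 and 8.73 ± 0.81 FPKM (log2 fold change 0.51, SE 0.15, adjusted p = 0.175). None of these differences held at the adjusted threshold in that table. In a fit of all 9 libraries, which share 1 estimate of the spread, Farsa, Vars and Yars2 were called. That fit called 272 of the 11841 genes tested higher and 179 lower, against 1 and 3 in the separate fit. Fars2 had the lowest change, -0.34 (SE 0.13, adjusted p = 0.257), with means of 26.6 ± 2.96 and 20.8 ± 2.66 FPKM and overlapping libraries.

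The 2 mutant groups were compared with the same control libraries, so their values are given side by side and no agreement is counted. Vars had log2 fold changes of 0.65 in Smad4 KO and 0.78 in double mutants, and Yars2 had 0.58 and 0.78. Mars had 0.44 and 0.63, Farsa 0.46 and 0.56, Aars2 0.51 and 0.67, and Vars2 0.51 and 0.57. Qars had -0.29 and -0.24, and Fars2 -0.34 and -0.27. The standard errors were mostly larger in Smad4 KO, 0.14 against 0.09 for Yars2 and 0.19 against 0.13 for Mars. The difference between the mutant groups was not tested, and a call in 1 of them does not show that they differ.

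**Figure D3:**
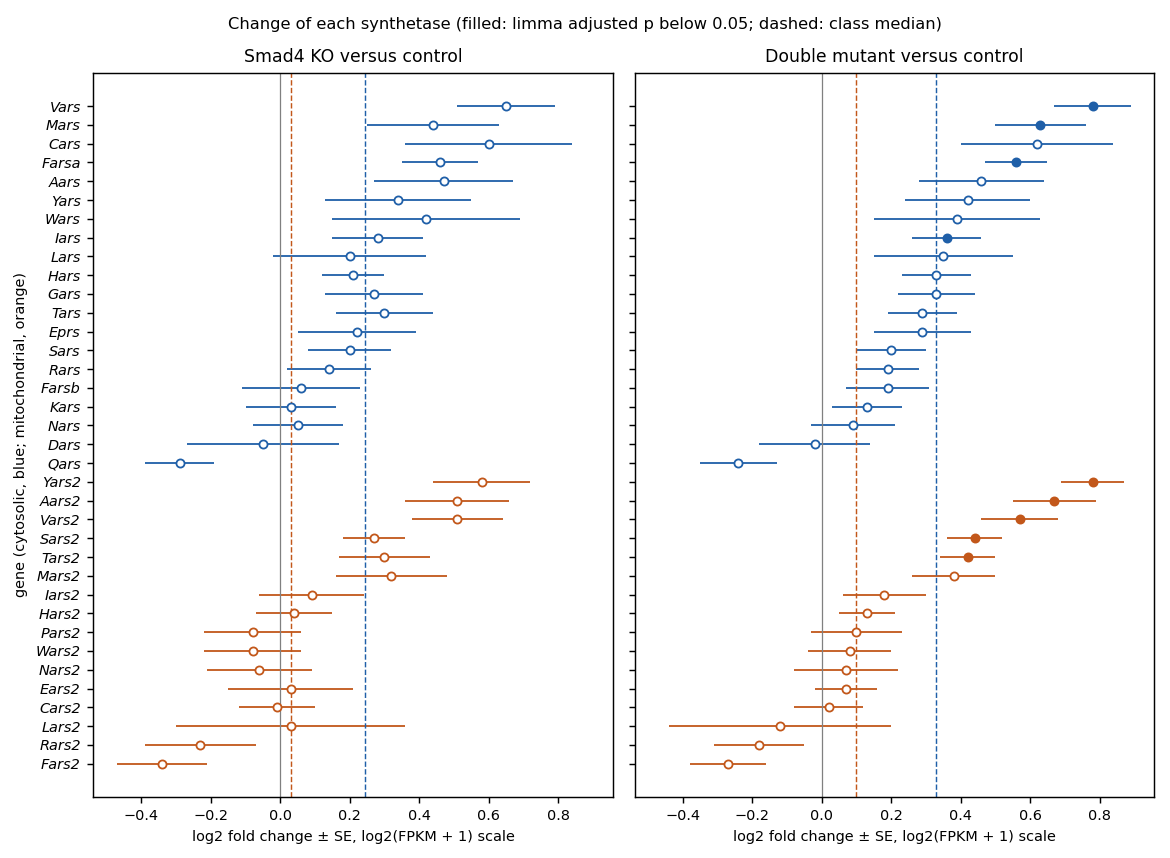
Log2 fold change of each synthetase, log2(FPKM + 1) scale, with SE (left Smad4 KO, right double mutants; 20 cytosolic genes blue, 16 of the 17 mitochondrial genes orange; filled points are called at a limma adjusted p below 0.05, dashed lines are medians of the whole classes). All points of the Smad4 KO panel are open, 9 of the double mutant panel are filled, and 6 mitochondrial genes lie between 0.38 and 0.78 in double mutants while the others drawn lie between -0.27 and 0.18.

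Set against each other, cytosolic genes had the higher median change. In double mutants the median log2 fold change was 0.33 over the 20 cytosolic genes and 0.10 over the 17 mitochondrial ones, with 0 over all genes tested. The calls were 4 of 20 and 5 of 17, and without control 0 they were 7 of 20 and 4 of 17. Over all genes, 1104 were called higher with all libraries and 657 without control 0. A log2 fold change above 0 was seen for 18 cytosolic and 13 mitochondrial genes, beside 49.9% of all genes. In Smad4 KO the medians were 0.24 and 0.03, again with 0 over all genes. There 18 cytosolic and 10 mitochondrial genes had a change above 0, beside 49.6% of all genes. No test was made of the difference between classes.

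The mitochondrial changes had a gap within their order. In double mutants Yars2, Aars2, Vars2, Sars2, Tars2 and Mars2 had log2 fold changes from 0.38 to 0.78. The other 11 ran from -0.27 for Fars2 to 0.18 for Iars2. The cytosolic class ran from -0.24 for Qars to 0.78 for Vars, with a gap of similar width between Qars and Dars (-0.02).

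When genes were paired by amino acid, 18 pairs could be formed, with Eprs, the joint glutamyl and prolyl enzyme, matched to Ears2 and to Pars2, and Farsa and Farsb each matched to Fars2. The cytosolic partner had the higher control level in 16 pairs. The exceptions were isoleucine (Iars 29.7, Iars2 38.5 FPKM) and cysteine (Cars 16.6, Cars2 17.0 FPKM). The ratio of levels ran from 0.773 to 22.5 for Nars over Nars2, with a median of 2.79. The cytosolic partner had the larger log2 fold change in 13 pairs of the double mutant comparison, with a median difference of 0.20, and in 15 pairs of the Smad4 KO comparison, with a median difference of 0.17.

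In the double mutants the widest gap was between Farsa (0.56) and Fars2 (-0.27), followed by Cars (0.62) and Cars2 (0.02). The order was turned for 5 pairs, among them Yars (0.42) and Yars2 (0.78), Sars (0.20) and Sars2 (0.44), Aars (0.46) and Aars2 (0.67), and Tars (0.29) and Tars2 (0.42). In these 4 the mitochondrial gene was called and the cytosolic one was not. Valine was the only amino acid with both partners called.

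**Figure D4:**
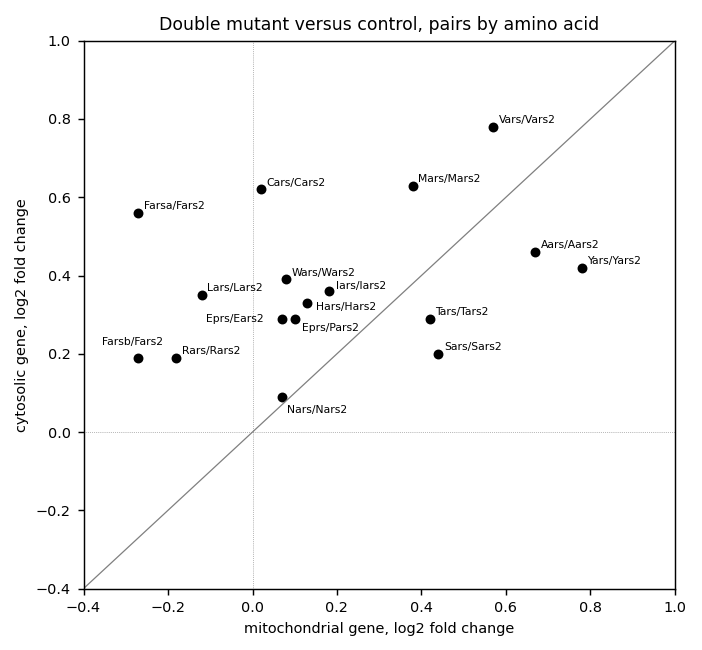
Log2 fold change in double mutants of the cytosolic gene (vertical axis) against that of its mitochondrial partner (horizontal axis) for 17 of the 18 pairs by amino acid; the line marks equal change. The 13 pairs above the line have the larger cytosolic change, with Farsa/Fars2 farthest above it, and Yars/Yars2 lies farthest below.

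By library, the summed level of the 20 cytosolic genes was 1160, 1070 and 997 FPKM in the controls of the double mutant table and 1250, 1340 and 1290 FPKM in double mutants 0, 1 and 2. The 17 mitochondrial genes summed to 285, 288 and 298 FPKM in controls and to 327, 329 and 335 in double mutants. Both sums were higher in each double mutant than in any control. The ratio of the cytosolic to the mitochondrial sum overlapped, at 3.34 to 4.08 in controls and 3.81 to 4.06 in double mutants.

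In the table of Smad4 KO the cytosolic sum was 1130, 1010 and 956 FPKM in controls and 1040, 1270 and 1250 FPKM in KO 0, 1 and 2. The mitochondrial sum was 276, 272 and 286 FPKM in controls and 278, 341 and 275 in KO. Thus KO 0 lay within the control range for both classes, KO 1 was high in both, and KO 2 was high in the cytosolic class only. Without KO 0 the median log2 fold change of the cytosolic class was 0.35 and that of the mitochondrial class 0.08.

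**Figure D5:**
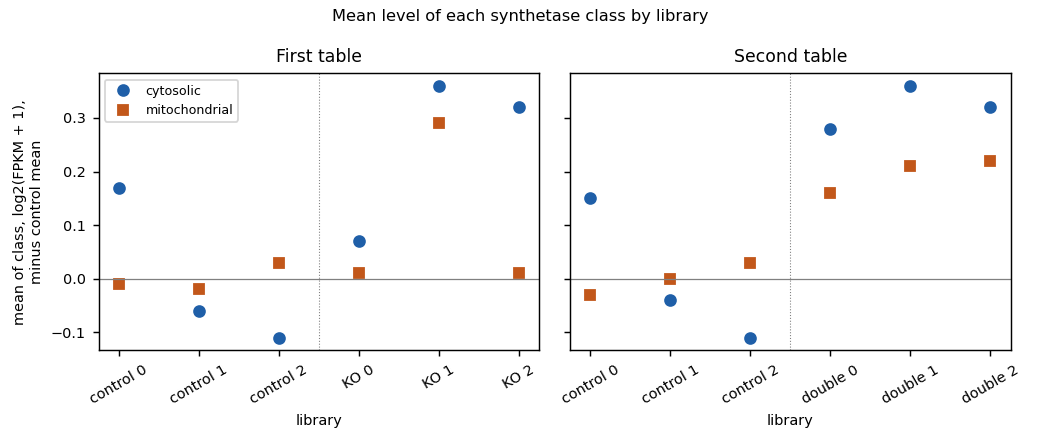
Mean log2(FPKM + 1) of the 20 cytosolic (circles) and 17 mitochondrial (squares) synthetases in each library, minus the mean of the 3 controls of the same table. Double mutants lie between 0.28 and 0.36 for the cytosolic class and between 0.16 and 0.22 for the mitochondrial class, and KO 0 (0.07 and 0.01) lies among the controls (-0.11 to 0.17).

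Markers of cell types also differed between libraries. All 13 enterocyte markers had negative log2 fold changes in both comparisons, and 9 of them fell in double mutants. Their summed level was 4470 to 12300 FPKM in controls and 1400 to 2620 in double mutants. In the table of Smad4 KO it was 4330 to 11800 FPKM in controls, 15400 in KO 0, 1340 in KO 1 and 2580 in KO 2. KO 0, with control-like sums of both synthetase classes, was thus also the library with the highest enterocyte sum. KO 2 had a control-like mitochondrial sum (275 FPKM) but an enterocyte sum below all controls. The 7 enteroendocrine markers summed to 393, 247 and 258 FPKM in KO 0, 1 and 2, against 140 to 183 in controls. Goblet sums overlapped, and tuft sums were lower in every KO library than in any control. KO 0 further had 8400 FPKM of the 7 Paneth cell markers, against 52000 to 137000 in controls, and 281 FPKM of the 5 stem cell markers, against 667 to 1540.

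Of the 5 stem cell markers, Lgr5 and Smoc2 rose in double mutants. The summed level of all 5 overlapped (695 to 1630 FPKM in controls, 911 to 1540 in double mutants). Of the 7 immune markers 4 fell in double mutants, with sums of 522 to 1350 FPKM in controls and 433 to 899 in double mutants. The 8 stromal and endothelial markers summed to 88.9 FPKM in KO 2 and 56.4 in double mutant 0, against 5.25 to 9.18 in all controls. The 4 red blood cell markers measured summed to 51.2 FPKM in KO 2 and 36.7 in double mutant 0, against 1.44 to 6.50 in controls. The part of these markers in the synthetase values was not tested.

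The calls depended on single libraries. Without double mutant 0, no synthetase was called, and the calls over all genes dropped to 78 higher and 61 lower. Without double mutant 2, again none was called, with 18 and 12 over all genes. Without double mutant 1, Vars, Farsa and Yars2 were called, with 338 higher and 370 lower over all genes. Without control 0, 7 cytosolic and 4 mitochondrial genes were called, and without control 1 or control 2 the counts were 2 and 4 each. Over all genes, 657 were higher and 898 lower without control 0, 688 and 487 without control 1, and 533 and 531 without control 2. With any 1 library left out, the median log2 fold change was between 0.28 and 0.39 for cytosolic genes and between 0.04 and 0.16 for mitochondrial ones.

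Within the family, several subdivisions were described by the same counts. The 8 synthetases of the multi-synthetase complex (Eprs, Iars, Lars, Qars, Mars, Kars, Rars and Dars) had a median log2 fold change of 0.24 in double mutants and 0.17 in Smad4 KO. Of these, Iars and Mars rose in double mutants, where 9.39% of all genes tested were called higher. The 12 cytosolic synthetases outside the complex had medians of 0.36 and 0.32, and Vars and Farsa rose. All 12 had a change above 0 in each comparison, beside 49.9% of all genes in double mutants and 49.6% in Smad4 KO.

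The scaffold genes of the complex were Aimp1, Aimp2 and Eef1e1. None of the 3 was called by limma in double mutants. At an unadjusted p below 0.05, 2 were higher, beside 18.2% of all genes. Aimp2 came near the threshold (log2 fold change 0.28, SE 0.08, adjusted p = 0.0539). Eef1e1 had a log2 fold change of 0.42 (adjusted p = 0.085) and Aimp1 of 0.08 (adjusted p = 0.63). Synthetases also divide into 2 structural classes with unrelated catalytic folds. In double mutants 5 of the 19 class I genes and 4 of the 18 class II genes rose, with medians of 0.35 and 0.20. Over all genes tested, 9.39% were called higher and the median was 0. Class I cytosolic genes had a median of 0.37 and class II cytosolic genes 0.25, while the mitochondrial medians were 0.08 and 0.11.

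Genes that work next to the synthetases were taken from a list of tRNA processing, proofreading and charging helpers, of which 16 were tested. In double mutants 8 rose and 1 fell, beside 9.39% and 9.09% of all genes, with a median log2 fold change of 0.28. Pusl1, related to tRNA pseudouridine synthases, rose from 8.02 to 16.1 FPKM (log2 fold change 0.92, SE 0.10, adjusted p = 0.0102). Aarsd1, a free-standing protein with an alanyl-tRNA editing domain, rose from 21.2 to 36.3 FPKM (log2 fold change 0.74, SE 0.10, adjusted p = 0.0139). Elac2, which trims the 3′ ends of precursor tRNAs, rose from 12.9 to 19.1 FPKM (log2 fold change 0.53, SE 0.09, adjusted p = 0.0182). Dtd1, a D-aminoacyl-tRNA deacylase, rose from 9.31 to 12.8 FPKM (log2 fold change 0.42, SE 0.09, adjusted p = 0.0329). The call of Dtd1 was lost with any 1 library left out. It was kept in 8 of 11 other settings of the fit to all libraries, but not with the replicate block (adjusted p = 0.0583). Sepsecs, which completes selenocysteine on its tRNA, was the gene that fell, from 20.5 to 14.2 FPKM (log2 fold change -0.50, SE 0.13, adjusted p = 0.0489). It was called in 4 of 11 other settings of the fit to all libraries, and its adjusted p was 0.0867 with sex as a covariate. In Smad4 KO limma called none of the 16 (5 were higher and 0 lower at an unadjusted p below 0.05), and the median was 0.12.

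Factors that carry charged tRNA to the ribosome or move it along had smaller median changes. Of 6 cytosolic elongation factor genes, Eef1d (log2 fold change 0.49, adjusted p = 0.0282) and Eef1g (0.35, adjusted p = 0.0434) rose in double mutants. Both are subunits of EF-1. The call of Eef1g was lost with any 1 library left out. It was kept in 8 of 11 other settings of the fit to all libraries, but not with the replicate block (adjusted p = 0.0864). The call of Eef1d was lost in 5 of the 6 fits without 1 library. The median of the 6 was 0.14, and Eef1a1, which delivers charged tRNA, had a log2 fold change of -0.13. Of 10 mitochondrial translation factors, Tsfm, the exchange factor of mitochondrial EF-Tu, rose from 34.2 to 49.3 FPKM (log2 fold change 0.52, adjusted p = 0.0287), with an adjusted p of 0.052 under the replicate block. The median of those 10 was 0.03.

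The ATF4 list had 25 tested genes, of which 7 rose and 1 fell in double mutants, beside 9.39% and 9.09% of all genes. Its median log2 fold change was 0.27. Sesn2, a leucine sensor of the mTORC1 pathway, rose from 3.29 to 7.62 FPKM (log2 fold change 1.01, SE 0.11, adjusted p = 0.00997), with an adjusted p of 0.0911 in the fit of all 9 libraries. Shmt2, the mitochondrial serine hydroxymethyltransferase, rose from 30.6 to 74.3 FPKM (log2 fold change 1.26, SE 0.13, adjusted p = 0.0102). Atf5, itself a target of ATF4, rose from 9.23 to 17.7 FPKM (log2 fold change 0.87, SE 0.13, adjusted p = 0.016). Cth, the cystathionine gamma-lyase that makes cysteine, fell from 79.7 to 36.4 FPKM (log2 fold change -1.10, SE 0.15, adjusted p = 0.0131).

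Other genes of the ATF4 list did not pass the test. Atf4 had a log2 fold change of 0.15 (adjusted p = 0.611) and Asns, the asparagine synthetase, of 0.38 (adjusted p = 0.336). Trib3 had -0.84 (adjusted p = 0.0752). The list summed to 1300, 929 and 913 FPKM in the controls of that table and to 1260, 878 and 967 in double mutants, so the groups overlapped in their sums. Gene by gene, the median difference from the control mean of log2(FPKM + 1) was 0.2, -0.1 and -0.2 in controls 0, 1 and 2. It was 0.51, 0.22 and 0.2 in double mutants 0, 1 and 2. In Smad4 KO limma called none of the 25 (8 were higher and 1 lower at an unadjusted p below 0.05), and the median was 0.34. The sum of KO 2 was 1560 FPKM against 800 in KO 0 and 891 in KO 1.

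Myc had 37.8 FPKM in controls and 47.3 in double mutants, a log2 fold change of 0.35 that did not pass the test (adjusted p = 0.329), and limma called none of the 4 genes of the Myc and Max list (0 were higher and 1 lower at an unadjusted p below 0.05). The interferon response list was examined because of Wars. Of its 12 tested genes 0 rose (also 0 at an unadjusted p below 0.05) and 2 fell in double mutants, Ifit1 (log2 fold change -1.29, adjusted p = 0.0195) and Irf7 (-0.90, adjusted p = 0.0379), with a median of -0.23. In the fit of all 9 libraries their adjusted p was 0.189 and 0.256. Wars itself had a log2 fold change of 0.39 in the same libraries and was not called.

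RefSeq promoters, on build GRCm38.p6 and from 250 bases before to 50 after the start, were found for 27 of the 37 members, 13 cytosolic and 14 mitochondrial. They were searched on both strands for the element TGATGNAA, bound by ATF4 with a C/EBP partner and here called CARE, and for the E-box CACGTG, which Myc and Max bind. The search was chosen after the values were seen. CARE letters occurred in 5 of the 13 cytosolic promoters (38.5%), those of Aars, Gars, Iars, Tars and Yars, and in 0 of the 14 mitochondrial ones, against 4.51% of the 27025 genes in the table, where a gene counts when any of its promoters holds the letters. E-box letters occurred in 4 cytosolic promoters (Aars, Farsb, Iars and Tars) and in 1 mitochondrial promoter (Ears2), against 8.09% of all genes. No CARE match overlapped an E-box match in these promoters. A further search for the 10-letter palindrome of the factor NRF1 found it in 0 of the 27, against 1.07% of all genes.

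Shown here are stretches of 90 bases on the strand of the gene, 5′ to 3′, chosen because they hold a match before the start, and that of Yars2, the synthetase with the smallest p, for comparison. Capitals mark CARE, which reads TTGCATCA or TTTCATCA on the opposite strand, or the E-box. They lie at positions -150 to -61 from the start for Aars and at -90 to -1 for the others. Their coordinates are chr8:111033692-111033781 (plus strand, Aars), chr6:55037911-55038000 (plus, Gars), chr15:11399659-11399748 (minus, Tars), chr13:49682040-49682129 (plus, Iars), chr1:78488898-78488987 (minus, Farsb) and chr16:16302875-16302964 (plus, Yars2).
Aars: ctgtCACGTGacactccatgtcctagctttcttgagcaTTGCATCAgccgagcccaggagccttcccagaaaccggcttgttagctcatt
Gars: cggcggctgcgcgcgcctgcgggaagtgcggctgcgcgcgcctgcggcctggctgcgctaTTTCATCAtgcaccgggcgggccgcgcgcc
Tars: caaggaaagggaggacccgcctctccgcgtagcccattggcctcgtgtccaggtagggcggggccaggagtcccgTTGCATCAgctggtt
Iars: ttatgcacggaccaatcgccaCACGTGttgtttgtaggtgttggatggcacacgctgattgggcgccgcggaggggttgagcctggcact
Farsb: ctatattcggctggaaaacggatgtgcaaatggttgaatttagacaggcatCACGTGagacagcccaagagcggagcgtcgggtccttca
Yars2: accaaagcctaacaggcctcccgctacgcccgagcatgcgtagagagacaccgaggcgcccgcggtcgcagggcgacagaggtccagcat

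A match is a description of these letters and not a binding site. Of the 9 genes called in double mutants, 8 had a promoter in the table, and of those Iars alone held CARE or E-box letters. The 5 cytosolic genes with CARE had log2 fold changes from 0.29 to 0.46 in double mutants, with a median of 0.36. The 8 cytosolic genes whose promoters lacked it ran from -0.24 to 0.63, with a median of 0.20. In Smad4 KO the genes with CARE ran from 0.27 to 0.47 (median 0.30) and those without it from -0.29 to 0.46 (median 0.13). These ranges overlap, and no test was made of the difference. Cytosolic genes with no promoter found (Cars, Hars, Lars, Nars, Rars, Vars and Wars) were in neither set. In double mutants they ran from 0.09 for Nars to 0.78 for Vars.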

How the data were processed

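RNA-seq of 9 jejunal crypt libraries was deposited by the authors as FPKM values in 2 tables of 23951 genes, made with TopHat2 2.1.1, Cuffnorm 2.2.1 and Cuffdiff 2.2.1 on build mm9, per the submitters' processing notes. No source used here names the gene annotation. The same control library differed between tables by a single factor (1.03, 1.06 and 1.04 for controls 0, 1 and 2), so each comparison was fitted within its own table. FPKM holds no read numbers, so the part of read depth in the spread is unknown, and each group has 3 libraries. The kit does not mark strand.

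Each table was fitted whole with limma 3.58.1 (R 4.3.3), empirical Bayes with a mean-variance trend, on log2(FPKM + 1), keeping the 11849 and 11762 genes whose average over 6 libraries reached 1 FPKM. Tests were two-sided, adjusted by the Benjamini-Hochberg method over all genes tested, and called below 0.05. The script was tested on simulated data. Library values were given for called members (up to 8 per class and comparison), for up to 3 of the smallest p otherwise, and for the largest rise and fall; up to 4 called genes per list were named. Other members, further list genes and the markers named were chosen after their values were seen. The values of 1 member are not reported here, though it is in the counts and medians. Members and lists were chosen with earlier results of these data known. Promoters came from RefSeq, matched by symbol or, failing that, by an unambiguous synonym.

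Replicate numbers were checked for pairing: the correlation of deviations of same-numbered libraries was -0.11, 0.22 and -0.10 in Smad4 KO and 0.07, 0.13 and 0.04 in double mutants, so numbers were not taken to pair samples. Alternatives covered the pseudocount, filter, trend, scaling, sex, replicate block, 1 fit of all 9 libraries, and leaving out each library.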

Additional observations from a re-analysis of the deposited data

How the results depend on the processing

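Fitting all 9 libraries at once called 2 cytosolic (Farsa, Vars) and 1 mitochondrial synthetase (Yars2) in Smad4 KO, where separate fits called 0. Over all genes the calls went from 1 higher and 3 lower to 272 and 179. In double mutants the cytosolic median log2 fold change was 0.38 after quantile normalization and 0.39 when libraries were scaled without the 50 highest genes. The latter scaling gave 0.16 for mitochondrial genes. Other settings (pseudocount, filter, trend, median-of-ratios scaling, sex) kept counts of 3 to 4 cytosolic and 5 mitochondrial calls. Iars lost its call at a pseudocount of 5 (adjusted p = 0.0505), with no filter, without the trend, under median-of-ratios and quantile scaling, when scaled without the 50 highest genes, with sex as a covariate and in the fit of 9 libraries. Class lists were recomputed as medians alone. Leaving out 1 library at a time gave 0 to 7 cytosolic and 0 to 4 mitochondrial calls in double mutants, and 0 of each in Smad4 KO. Over all genes, such fits called 18 to 688 higher in double mutants and 2 to 8 in Smad4 KO. Medians ran from 0.28 to 0.39 and from 0.04 to 0.16 in double mutants, and from 0.20 to 0.36 and from -0.06 to 0.08 in Smad4 KO. Aimp1 had -0.01 without control 0 (to 0.14 without control 1) and Atf4 -0.03 without double mutant 0, and neither was called in any fit. The cytosolic minus mitochondrial median ran from 0.13 to 0.30 in double mutants and from 0.13 to 0.35 in Smad4 KO. With the replicate block, double mutants had 3 cytosolic and 5 mitochondrial calls, Iars and Mars losing theirs and Cars gaining one, and Smad4 KO had 0. The deposited tables hold no test of the authors among the columns used, so that alternative was not run. Causes of these shifts were not tested.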
